A study of Homo sapiens with 6 samples.

Results

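Cells that carried CD201 on their surface but not CD13 (CD201-only) were compared with cells that carried both proteins (double-positive), on day 8 of reprogramming of BJ cells, human foreskin fibroblasts kept as an established cell line. Both groups came from cultures infected with lentivirus carrying 2 polycistronic constructs, one with OCT4 and SOX2 and one with KLF4 and MYC, so every cell group in the study had been exposed to the same 4 factors. The cells were held first in medium with serum, moved to Matrigel and then to medium for human embryonic stem cells, and were sorted with antibodies to CD13 and CD201. Each group holds 2 libraries, so the comparison uses 4 of the 6 libraries of the study. The other 2 come from cells negative for both proteins (double-negative). They enter here through the estimate of spread, as values set beside the rest and in a second comparison with CD201-only cells. The labels do not say whether the libraries of a group came from separate cultures, so p-values measure only the spread between these samples, which may be technical.

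Expression is given as FPKM, fragments per length of transcript scaled for library size, from stranded poly-A RNA libraries. The sources used here do not give the scaling rule. A gene was tested when its mean over the 4 compared libraries reached 1 FPKM, which left 12161 of 27788 gene symbols, with 15627 under the limit. The nearest genes on either side were KRBA2 at 1.0002, LOC102724814 at 1.0006 and POLQ at 1.0008, which were tested, and LIPT1 at 0.99994, TSPAN2 at 0.99964 and DAAM2 at 0.99902, which were not. A change is the CD201-only mean of log2(FPKM + 1) minus the double-positive mean, so that a negative value is lower expression in cells without CD13. This scale understates the fold change of genes near or under 1 FPKM, and ratios of mean FPKM are given beside it where they help. A gene was called when its adjusted p, from limma with Benjamini-Hochberg adjustment over all genes tested, was under 0.05, and "rose" and "fell" below are used only for called genes.

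Reprogramming turns a fibroblast into a cell resembling an embryonic stem cell: genes of the fibroblast programme are shut down, epithelial features are gained, and the pluripotency network is switched on late. CD13, the product of ANPEP, is a membrane aminopeptidase abundant on fibroblasts that trims peptides outside the cell. CD201, the product of PROCR, is the endothelial protein C receptor, which binds protein C of the anticoagulant pathway and is also found on several stem and progenitor cells. The comparison asks what goes with the loss of CD13 while CD201 is kept.

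ANPEP, the gene of the protein that separates the groups, differed strongly at the transcript level. It stood at 29.1 and 28.7 FPKM in the CD201-only libraries and at 158 and 153 in the double-positive ones, a 5.37-fold difference in mean FPKM and a change of -2.39 (standard error 0.0303, adjusted p 1.31e-08). The double-negative libraries held 35.7 and 36.2, so the CD13-negative groups lay close together and far below the double-positive cells. PROCR stood at 45.8 and 49.1 in CD201-only, 51.3 and 52.5 in double-positive and 16.6 and 17.98 in double-negative cells. Both CD201-only values of PROCR lay under both double-positive values, but the change of -0.13 was not called (adjusted p 0.0593); after rescaling each library by its median ratio to the others it was -0.21 with an adjusted p of 0.00897. ANPEP transcripts were still present in CD201-only cells. In bulk samples a smaller number of cells with a transcript and less of it per cell cannot be told apart.

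The delivered factors differed in part. KLF4 stood at 168 and 170.5 FPKM in CD201-only and 228 and 219 in double-positive cells, a change of -0.40 (adjusted p 1.82e-05), and MYC stood at 138 and 135 against 176 and 173, a change of -0.35 (adjusted p 2.36e-05). For both genes, and for SOX2 below, the groups did not overlap, as for 79.7% of all genes tested. POU5F1, which encodes OCT4, stood at 531 and 511 against 536 and 513, and SOX2 at 474 and 454 against 452 and 448. Neither of these was called (adjusted p 0.815 and 0.179), and in both genes the CD201-only replicates differed by more than the group means. After median-ratio rescaling POU5F1 was called lower by 0.09 and the sign of SOX2 turned to -0.04 without a call. Values of these 4 genes may include reads from the vectors, which cannot be told apart from the cells' own transcripts here.

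**Figure D1:**
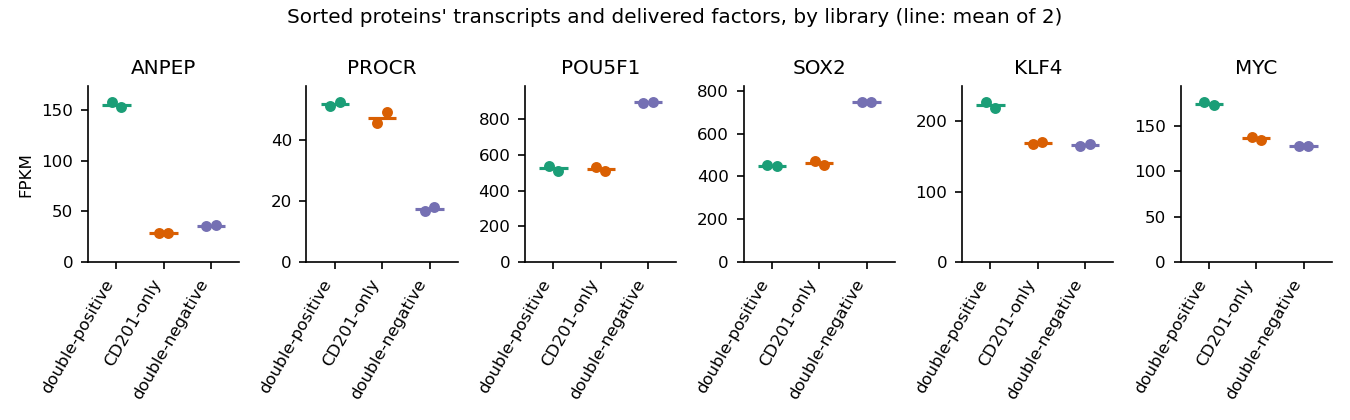
FPKM of ANPEP, PROCR, POU5F1, SOX2, KLF4 and MYC in each of the 6 libraries; points are libraries and short bars are group means, on axes that start at 0. ANPEP is high in both double-positive libraries and low in the other 4, PROCR is low only in the double-negative pair, and KLF4 and MYC are lower in CD201-only than in double-positive cells.

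FPKM summed to 521352 and 520703 in the CD201-only libraries and to 489358 and 489152 in the double-positive ones. Counts were not used here. The most common ratio of low FPKM values to those of CD201-only replicate 2 put relative depth between 0.728 and 1.0 over the 6 libraries. Any rescaling of the libraries would enter this ratio, so it is only a rough guide to depth. Across the 12161 genes, Pearson's r of log2(FPKM + 1) was 0.994 between the CD201-only libraries, 0.9918 between the double-positive libraries and 0.9588 to 0.9605 between groups. Fibroblast identity was checked with a separate list of markers, named whatever their level or call. The cells of both groups carried fibroblast transcripts: VIM, the intermediate filament of mesenchymal cells, stood at 1563 and 1578 FPKM in CD201-only against 2527 and 2561 in double-positive cells, and the surface antigen THY1 at 1183 and 1167 against 1382 and 1358. The matrix markers were much less even, with COL1A2 at 429.7 and 425 against 1883 and 1859 and COL3A1 at 323 and 313 against 850.3 and 818. DCN and LUM, small leucine-rich proteoglycans that define many fibroblasts, were low everywhere, with DCN at 0.863 and 0.64 against 3.37 and 3.97 and LUM at 0.264 and 0.335 against 3.58 and 3.35.

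Most of the transcriptome differed, mostly by small amounts. Of 12161 genes, 4372 were called higher in CD201-only cells (36.0%) and 2836 lower (23.3%), 59.3% in all, and 4953 were not called. Over all genes tested the median change was 0.07, and 60.7% of the calls were higher. After median-ratio rescaling, which moved that median to 0.00, 47.8% of the calls were higher (3228 higher and 3528 lower), so the balance of small changes depended on the scaling. Changes of 2-fold or more leaned the other way: 83 genes rose (0.683%) and 519 fell (4.27%) by at least 2-fold, and 2 rose (0.0164%) and 109 fell (0.896%) by at least 4-fold. The 2 rises past 4-fold were SNORA57 and the read-through symbol TMEM256-PLSCR3, a small RNA gene and a joined locus that were left out of the largest changes below. For 9690 genes (79.7%) the libraries of the groups did not overlap, so a lack of overlap alone sets few genes apart.

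How often a gene was called depended on its level. From 1 to 3 FPKM, 41.1% of 2490 genes were called, and this share was 53% from 3 to 10 FPKM, 64.5% from 10 to 30, 75.4% from 30 to 100 and 82.9% of the 788 genes at 100 FPKM or more. Replicates were closer at high levels, with a median coefficient of variation in CD201-only cells of 8.22% in the lowest class and 1.37% in the highest. The excess of large falls over large rises was present at every level: 113 against 3 in the lowest class, 188 against 26, 133 against 22 and 59 against 24 in the next ones, and 26 against 8 in the highest.

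**Figure D2:**
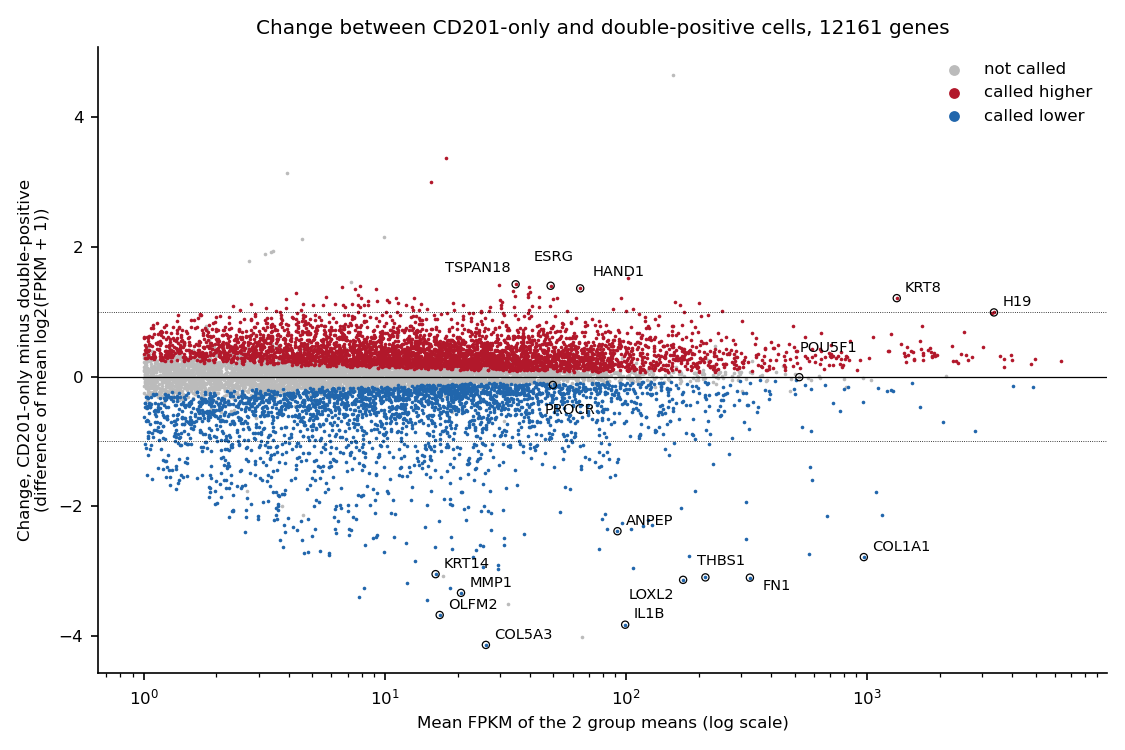
Change between CD201-only and double-positive cells (difference of mean log2(FPKM + 1)) against mean FPKM on a log scale for 12161 genes; red and blue points were called higher and lower, grey points were not called, and dotted lines mark 2-fold. Falls reach far below the lower dotted line at all levels, while few called genes lie above the upper one.

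Among the 12 largest falls, 5 encode parts or modifiers of the extracellular matrix. The choice of largest changes required a call, groups that did not overlap and a mean of 5 FPKM in the higher group. A lack of overlap in these genes is therefore not a separate result. COL5A3, a chain of type V collagen, stood at 1.87 and 1.97 FPKM in CD201-only and 52.3 and 48.8 in double-positive cells, a change of -4.14 (standard error 0.0561, adjusted p 1.34e-08). FN1, which encodes fibronectin, stood at 65.2 and 69.2 against 575 and 595, a change of -3.103, and THBS1, the matricellular protein thrombospondin 1, at 43.1 and 44.5 against 383 and 383, a change of -3.099. These are abundant transcripts of the double-positive cells, so the falls are not confined to genes near the detection limit. LOXL2, a lysyl oxidase that cross-links collagen, stood at 34.3 and 34.5 against 314 and 306 (-3.14), and the collagenase MMP1 at 3.24 and 2.56 against 34.9 and 42.03 (-3.34). The adjusted p of FN1, THBS1, LOXL2 and MMP1 was 7.51e-09, 3.09e-09, 3.09e-09 and 1.28e-06.

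Secreted signals and enzymes made up most of the remaining 7. IL1B, the inflammatory cytokine interleukin 1 beta, stood at 12.1 and 12.2 FPKM in CD201-only and 177 and 195 in double-positive cells (-3.83, adjusted p 1.31e-08). CXCL8, the neutrophil chemokine interleukin 8, stood at 1.76 and 1.38 against 16.4 and 29.96 (-3.18, adjusted p 3.62e-05). In FPKM, its double-positive libraries differed from each other by nearly as much as the lower of them differed from the CD201-only libraries. On the log2 scale of the change, the gap between the groups was clearly wider than that between these 2 libraries. CYP26B1, which degrades retinoic acid, stood at 1.66 and 1.7 against 28.7 and 27.5 (-3.44). KISS1, the precursor of kisspeptin, stood at 0.152 and 1.02 against 14.98 and 15.1 (-3.395). The CD201-only values of KISS1 are near the floor, and its change rests on the double-positive level. OLFM2, a secreted olfactomedin-domain protein, stood at 1.5 and 1.68 against 32.5 and 31.9 (-3.68), the transmembrane protein gene TMEM119 at 2.69 and 2.67 against 35.1 and 33.8 (-3.27), and SLURP1, a secreted Ly6-family protein of keratinocytes, at 0.792 and 0.663 against 16.01 and 15.3 (-3.27). As the choice required, all 7 were higher in both double-positive libraries than in both CD201-only ones.

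The 12 largest rises, chosen under the same conditions, were smaller than the falls, from 1.29 to 1.42. TSPAN18, a tetraspanin, stood at 51.2 and 51.2 FPKM in CD201-only and 18.6 and 18.3 in double-positive cells (1.42, standard error 0.0319, adjusted p 1.63e-07), and CDHR1, a cadherin-related protein of photoreceptors, at 44.8 and 42.8 against 16.04 and 15.8 (1.41). ESRG, a long non-coding RNA of human pluripotent cells, stood at 71.3 and 70.8 against 25.6 and 26.9 (1.402). In the double-negative libraries ESRG reached 109 and 112, above both, while TSPAN18 at 28.7 and 28.6 and CDHR1 at 33.3 and 33.8 were lower than in CD201-only cells. HAND1, a transcription factor of heart, lateral mesoderm and extraembryonic tissue, stood at 93.9 and 92.8 against 36.7 and 34.7 (1.36), with 17.7 and 16.5 in the double-negative cells. HAND1 was thus higher in CD201-only cells than in either other group, with a change of 2.38 against double-negative cells (adjusted p 2.51e-07).

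ALDH1A2, the enzyme that makes retinoic acid in the embryo, stood at 56.4 and 59.1 FPKM against 20.9 and 22.03 (1.39), so the synthesis gene rose where the degradation gene CYP26B1 fell. TH, tyrosine hydroxylase of catecholamine synthesis, stood at 10.1 and 9.9 against 2.91 and 3.6 (1.38), and UNC13D, a priming factor of granule exocytosis, at 12.2 and 11.6 against 3.81 and 4.001 (1.395). BAMBI, a pseudoreceptor that dampens TGF-beta family signalling, stood at 47.8 and 50.5 against 19.4 and 18.6 (1.33). Among epithelial products, SFN (14-3-3 sigma) stood at 57.9 and 56.6 against 22.9 and 22 (1.31) and the membrane mucin MUC4 at 6.45 and 6.52 against 2.11 and 2.02 (1.29). The last of the 12 were CHI3L2, a chitinase-like protein, at 13.9 and 13.3 against 4.33 and 5.18 (1.35), and the non-coding RNA LINC01405 at 10.7 and 11.6 against 5.38 and 2.54 (1.35), whose call was lost under at least 1 alternative. As the choice required, both CD201-only libraries lay above both double-positive ones in these 8 genes.

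Beside the double-negative cells, which also lack CD13, several of these genes were lower still in CD201-only cells. Of all genes tested, 16.7% were called higher and 21.0% lower in CD201-only than in double-negative cells. COL5A3 stood at 6.26 and 6.32 FPKM in double-negative cells, above the CD201-only libraries (-1.32 for CD201-only minus double-negative, adjusted p 5.72e-06), FN1 at 171 and 167 (-1.32, adjusted p 7.95e-07) and IL1B at 41.4 and 42.1 (-1.700, adjusted p 9.96e-07). LOXL2 stood at 72.7 and 73.7 (-1.07, adjusted p 6.55e-07), THBS1 at 86.97 and 87.2 (-0.98, adjusted p 7.55e-07) and CXCL8 at 9.88 and 7.81 (-1.93, adjusted p 0.000984). In these 6 genes CD201-only cells held the lowest level of the 3 groups. The same held for OLFM2 (-1.11), KISS1 (-1.19), MMP1 (-1.04), CYP26B1 (-0.86) and TMEM119 (-0.83), each called. SLURP1, at 0.845 and 1.03 in double-negative cells, lay close to its CD201-only level (-0.16, adjusted p 0.174). Among the rises, UNC13D at 3.48 and 3.64 (1.501, adjusted p 5.4e-06), SFN at 20.8 and 21.9 (1.38, adjusted p 1.14e-06) and MUC4 at 1.54 and 1.59 (1.54, adjusted p 7.36e-06) were, like HAND1, highest in CD201-only cells. So were LINC01405 (2.58), TH (1.84), CHI3L2 (0.86), TSPAN18 (0.81), BAMBI (0.44) and CDHR1 (0.38), each called. ESRG was highest in double-negative cells (-0.63). ALDH1A2, at 51.2 and 51.5, was only slightly below its CD201-only level in double-negative cells (0.17, adjusted p 0.0153). Both comparisons use the same CD201-only libraries.

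**Figure D3:**
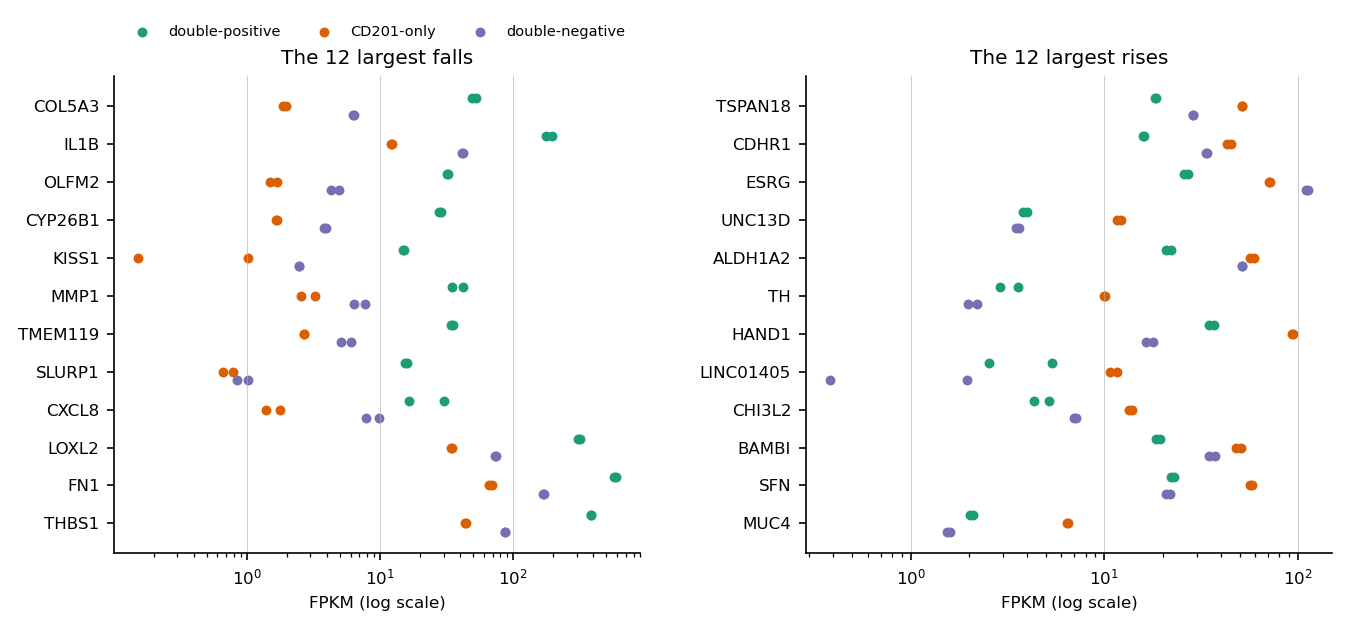
FPKM in each library for the 12 largest falls and the 12 largest rises, on a log axis; each point is a library, coloured by group, with the double-negative libraries for reference. A lack of overlap between CD201-only and double-positive points was a condition for choosing these genes. The gap is wider among the falls.

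Promoters of some of these genes are shown because the genes move together and several encode matrix and inflammatory products with known elements for AP-1, TEAD or NF-kappa-B. The 250 bases before the RefSeq start on build GRCh38.p14 were searched on both strands for the AP-1 motif TGANTCA, the cyclic AMP response element TGACGTCA, the TEAD motif GGAATG, the E2F motif TTTNGCGC and, for NF-kappa-B, GGG and TTTCC with any 2 bases between them. Promoters were found for 8 of the 12 falls and 7 of the 12 rises. Capitals mark a match to one of these motifs, and each sequence runs 5′ to 3′ on the strand of its gene. COL5A3 (chr19:10010505-10010754, minus strand) leads the falls and holds no match, CXCL8 (chr4:73740319-73740568, plus strand) holds an AP-1 match, FN1 (chr2:215436069-215436318, minus strand) a cyclic AMP response element, THBS1 (chr15:39580829-39581078, plus strand) a TEAD match, and the rising gene SFN (chr1:26862899-26863148, plus strand) an AP-1 match.
COL5A3: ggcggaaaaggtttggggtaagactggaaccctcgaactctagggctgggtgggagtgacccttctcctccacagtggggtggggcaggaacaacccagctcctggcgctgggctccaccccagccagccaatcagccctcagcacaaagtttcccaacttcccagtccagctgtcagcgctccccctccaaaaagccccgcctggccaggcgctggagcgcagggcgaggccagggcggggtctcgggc
CXCL8: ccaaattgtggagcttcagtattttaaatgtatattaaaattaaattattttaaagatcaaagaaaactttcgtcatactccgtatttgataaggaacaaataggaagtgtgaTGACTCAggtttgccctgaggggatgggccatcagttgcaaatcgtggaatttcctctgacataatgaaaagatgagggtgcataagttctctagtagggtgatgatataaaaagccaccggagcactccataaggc
FN1: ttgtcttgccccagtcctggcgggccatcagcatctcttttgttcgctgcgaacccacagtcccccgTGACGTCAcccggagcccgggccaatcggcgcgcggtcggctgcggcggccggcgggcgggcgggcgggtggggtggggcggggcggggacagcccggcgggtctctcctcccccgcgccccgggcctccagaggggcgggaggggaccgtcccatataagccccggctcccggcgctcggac
THBS1: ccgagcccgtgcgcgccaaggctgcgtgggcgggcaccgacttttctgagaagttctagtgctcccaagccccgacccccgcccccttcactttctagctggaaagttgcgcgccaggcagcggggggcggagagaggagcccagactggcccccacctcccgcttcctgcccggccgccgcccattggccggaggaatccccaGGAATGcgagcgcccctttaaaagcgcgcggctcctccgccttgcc
SFN: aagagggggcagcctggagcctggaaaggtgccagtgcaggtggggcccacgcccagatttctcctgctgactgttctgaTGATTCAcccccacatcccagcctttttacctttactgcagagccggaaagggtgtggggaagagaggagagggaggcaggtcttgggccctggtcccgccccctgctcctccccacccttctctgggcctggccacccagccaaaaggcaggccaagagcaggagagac
The AP-1 motif was in 1 of 8 falls, 1 of 7 rises, 6.6% of all 27305 promoters and 3.83% of the 9407 promoters of tested genes. The cyclic AMP response element was in 1 of 8 and 0 of 7, with 1.77% of all promoters and 2.92% of those of tested genes. The TEAD motif was in 2 of 8 (THBS1 and OLFM2) and 1 of 7 (MUC4), with 11.9% and 9.68%. The E2F motif was in 0 of 8 and 0 of 7, with 1.54% and 2.43%, and the NF-kappa-B letters in 0 of 8 and 0 of 7, with 1.73% and 1.86%. The NF-kappa-B element known in the CXCL8 promoter, tggaatttcc in the sequence above, is spelled differently and is not matched by these letters. A match describes letters only, and no match says only that these letters are not in this window.

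To describe functions, 61 lists of genes were counted against the 36.0% of all genes called higher and 23.3% called lower. Their medians were set beside the median change of 0.07. The share called grew with level, from 41.1% in the lowest class to 82.9% in the highest, and the lists were not matched for level. Members had to pass the same 1 FPKM limit, which a gene high in only one group can pass through that group. Each count therefore describes the members that passed and not the whole list. Except where stated, genes named from the lists had to be called and have groups that did not overlap. A lack of overlap in them follows from this choice.

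**Figure D4:**
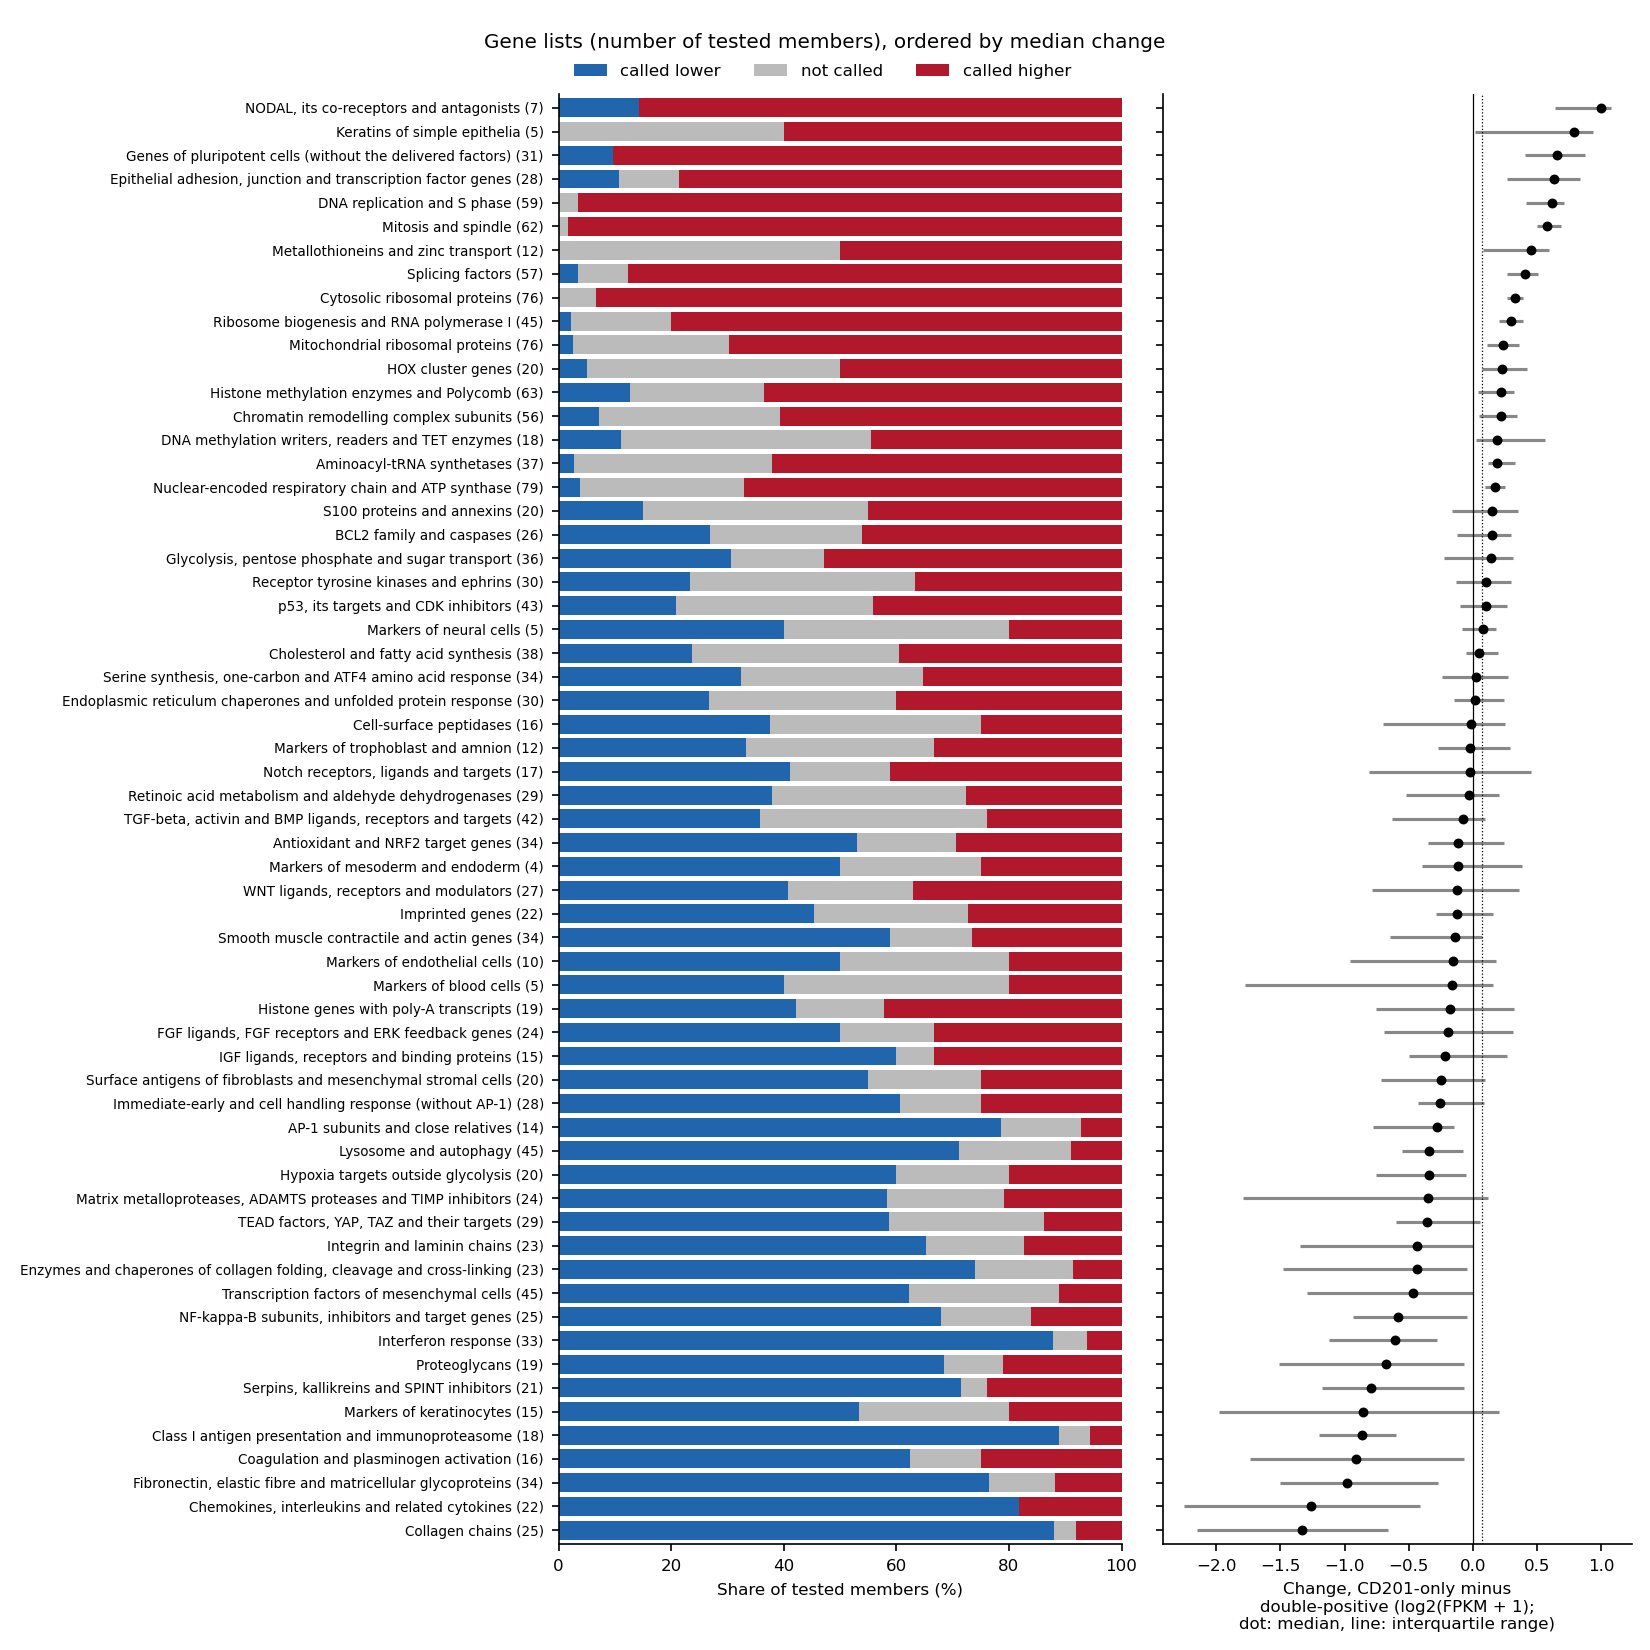
Median change (dot) and interquartile range (line) of the tested members of each list, in log2(FPKM + 1), beside the share of tested members called lower (blue), not called (grey) and called higher (red); the number tested is in brackets, and the dotted line is the median of all genes. Matrix and inflammatory lists lie on the left, and replication, mitosis, pluripotency and epithelial lists on the right.

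Matrix genes fell broadly. Of 25 collagen chains tested, 22 fell, 14 of them by at least 2-fold, and 2 rose, with a median of -1.33. COL1A1, a chain of type I collagen, stood at 246 and 242 FPKM in CD201-only and 1721 and 1661 in double-positive cells (-2.79, adjusted p 3.18e-09), and COL6A2, of the type VI microfibrils, at 149.7 and 149 against 1006 and 986 (-2.73). COL17A1, the transmembrane collagen of epithelial hemidesmosomes, went the other way, at 56.3 and 55.8 against 25.4 and 26.2 (1.09). COL17A1 was high in both CD201-only libraries, where these type I and VI chains were low.

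The enzymes that finish collagen followed in part: of 23, 17 fell and 2 rose (median -0.44). P4HA3, a prolyl hydroxylase subunit, changed by -2.76, ADAMTS2, which removes the procollagen N-propeptide, by -2.57, and the lysyl oxidase LOX by -1.27, whereas the prolyl hydroxylase P3H2 rose by 0.37. Among glycoproteins 26 of 34 fell and 4 rose (median -0.98). LTBP2, a microfibril protein, stood at 6.28 and 6.43 against 43.6 and 43.1 (-2.59), while FBN2, the fetal fibrillin, stood at 175 and 184 against 89.9 and 96.6 (0.94). FBN2 therefore moved against its class.

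Among 19 proteoglycans of 23 listed, 13 fell and 4 rose (median -0.67). BGN, which encodes biglycan, stood at 30.3 and 29.7 against 136 and 131 (-2.11), with PRELP at -2.32 and SPOCK1 at -2.36, and VCAN, the hyaluronan-binding versican, rose by 0.35. Of 23 integrin and laminin chains, 15 fell and 4 rose. ITGA11, the collagen receptor of fibroblasts, stood at 1.34 and 1.39 against 11.1 and 10.9 (-2.35), and ITGB3 and ITGA3 changed by -1.57 and -1.43. ITGA11 and most collagen chains were thus low in the same libraries.

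Proteases and their inhibitors also lay lower on balance. Of 24 metalloproteases and TIMP inhibitors, 14 fell and 5 rose (median -0.35): MMP11 stood at 5.75 and 5.99 against 53.2 and 52.7 (-2.97), the inhibitor TIMP3 at 44.2 and 47.3 against 315 and 322 (-2.77), and MMP15, a membrane-bound metalloprotease, rose by 0.65. In the coagulation and plasminogen list, which holds PROCR, 10 of 16 fell and 4 rose (2 without CD201-only replicate 2). PLAU, the urokinase that activates plasminogen, stood at 43.2 and 42.1 against 210.1 and 215 (-2.29, adjusted p 3.02e-08), and TFPI2, a Kunitz-type inhibitor, at 10.4 and 9.11 against 41.8 and 41.6 (-1.99). Both were low in both CD201-only libraries. S100A10, the annexin partner that binds plasminogen at the surface, rose by 0.61.

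Surface peptidases did not follow ANPEP as a class. Of 16 tested, ANPEP itself among them, 6 fell (ANPEP included), 4 rose and 6 were not called. ADAM12, a sheddase, stood at 2.53 and 2.42 against 12.8 and 12.6 (-1.98), and CPM, a membrane carboxypeptidase, at 7.49 and 8.43 against 2.94 and 3.36 (1.11). Serpins, kallikreins and SPINT inhibitors fell in 15 of 21 and rose in 5 (median -0.80). KLK10 and KLK14, secreted kallikreins, stood at 4.46 and 4.45 against 33.04 and 33.6 (-2.65) and 4.83 and 5.44 against 47.3 and 44.5 (-2.94), and SPINT2, an epithelial protease inhibitor, at 133 and 134 against 65.5 and 66.3 (1.01). S100 proteins and annexins were mixed, with 9 of 20 higher and 3 lower (8 lower after median-ratio rescaling, 6 without double-positive replicate 1), and S100A14 and ANXA3 rose by 1.12 and 1.13 while ANXA6 changed by -0.50.

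Inflammatory genes fell. Of 41 chemokines, interleukins and related cytokines, 22 passed the limit, 18 fell and 4 rose (median -1.26). IL6 stood at 0.393 and 0.263 FPKM in CD201-only and 6.62 and 7.86 in double-positive cells (-2.63, adjusted p 3.69e-06). IL18, an interleukin made by epithelial cells, stood at 39.7 and 35.4 against 16.5 and 17.98 (1.08), and so rose where IL1B, IL6 and CXCL8 fell. NF-kappa-B subunits, inhibitors and target genes fell in 17 of 25 and rose in 4 (median -0.58). The adhesion molecule ICAM1 stood at 6.83 and 7.17 against 30.2 and 30.6 (-1.97), the subunit RELB changed by -1.23 and TNFAIP2 by -1.26, while CD83, a surface protein of activated antigen-presenting cells, rose by 1.004.

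Interferon response genes fell in 29 of 33 and rose in 2 (median -0.60). IFI35 stood at 3.9 and 4.68 against 13.6 and 14.4 (-1.51), IFI6 changed by -1.35 and IFIT3 by -1.28, and PLSCR1, a phospholipid scramblase, rose by 0.31. Class I antigen presentation moved in the same direction, with 16 of 18 lower and 1 higher (median -0.87). PSMB9, a catalytic subunit of the immunoproteasome, stood at 2.1 and 2.12 against 15.6 and 17.1 (-2.48), HLA-B at 87.2 and 88.4 against 293 and 307 (-1.76) and HLA-F at 0.816 and 0.763 against 7.18 and 7.12 (-2.19). HLA genes are closely similar and reads may be split among them, so the values of single HLA genes are uncertain. The chaperone CALR, which loads class I molecules, rose by 0.10, a call that was lost under at least 1 alternative.

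Transcription factors of the early response were lower. Of 14 AP-1 subunits and relatives, 11 fell and 1 rose (median -0.28); JUNB stood at 35.9 and 34.9 against 95.9 and 92.6 (-1.39), FOSB changed by -1.38 and FOSL1 by -0.89. Among the remaining immediate-early genes 17 of 28 fell and 7 rose (median -0.26), with EGR1 at 27.2 and 26.96 against 75.9 and 70.6 (-1.402), EGR2 at -1.396 and the mRNA-decay factor ZFP36 at -1.03. SGK1, a kinase induced by serum and glucocorticoids, rose by 0.55.

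Receptor and growth factor genes were divided. In the FGF and ERK feedback list 12 of 24 fell and 8 rose; DUSP5, a nuclear ERK phosphatase, stood at 5.4 and 6.69 against 16.9 and 17.9 (-1.39), FGF2 changed by -0.92, and IL17RD, an inhibitor of FGF signalling, rose by 0.78. Among 30 receptor tyrosine kinases and ephrins 11 rose, 7 fell and 12 were not called. These shares lie near the 36.0% higher and 23.3% lower of all genes. PDGFRB, the fibroblast receptor for PDGF-BB, stood at 20.9 and 19.9 against 135 and 134 (-2.66, adjusted p 1.31e-08), PDGFRA at 11.7 and 12.01 against 19.2 and 20.96 (-0.71) and DDR2, a collagen receptor kinase, changed by -0.79. EPHA4, an ephrin receptor, rose by 0.72. The 2 PDGF receptors differed in size of change, and the difference between them was not tested.

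In the TGF-beta, activin and BMP list of 42 tested genes, 15 fell, 10 rose and 17 were not called. TGFB2, a ligand, stood at 2.42 and 2.13 against 8.1 and 7.76 (-1.45), the co-receptor ENG (endoglin) at 34.2 and 33.8 against 76.8 and 71.1 (-1.096), and GREM1, a BMP antagonist, at 5.07 and 5.14 against 39.95 and 42.5 (-2.79). A ligand and a co-receptor were low where the pseudoreceptor BAMBI was high. The NODAL branch moved up: of 10 listed genes 7 passed the limit, and 6 rose and 1 fell. LEFTY2, a NODAL antagonist, stood at 20.4 and 20.3 against 9.71 and 9.05 (1.04), and TDGF1, the NODAL co-receptor, at 41.7 and 42.2 against 18.5 and 19.3 (1.11). Its near-identical retrocopy TDGF1P3 changed by 1.21, and reads may be split between them.

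WNT genes fell in 11 and rose in 10 of 27. The non-canonical ligand WNT5A stood at 16.9 and 15.8 against 54.5 and 54.1 (-1.67), DKK3 at 37.8 and 40.2 against 197 and 197 (-2.31) and the WNT antagonist DKK1 at 4.28 and 3.89 against 12.8 and 11.3 (-1.36), while the receptor FZD5 rose by 0.69. Notch genes were even, 7 lower and 7 higher of 17. NOTCH3, the receptor of mural cells, stood at 5.08 and 5.42 against 29.3 and 27.5 (-2.23), HES4 changed by -1.41 and the target HEY1 rose by 0.91. In both pathways members went in both directions.

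Of 15 insulin-like growth factor genes 9 fell and 5 rose. PAPPA, the protease that frees IGF from its binding proteins, stood at 0.409 and 0.366 against 6.77 and 7.11 (-2.52), the binding proteins IGFBP7 and IGFBP3 changed by -0.84 and -0.53, and IGF2BP1, an RNA-binding protein of fetal cells, rose by 0.68. TEAD factors, YAP, TAZ and their targets fell in 17 of 29 and rose in 4 (median -0.35). WWTR1, which encodes TAZ, stood at 9.62 and 8.78 against 20.1 and 20.3 (-1.06), but the target ANKRD1 stood at 12.04 and 11.1 against 4.11 and 4.71 (1.22). A widely used target thus rose where the co-activator gene fell.

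The list of retinoic acid and aldehyde dehydrogenase genes, which holds ALDH1A2 and CYP26B1, had 11 lower and 8 higher of 29. ALDH3A1, an aldehyde dehydrogenase of cornea and skin, stood at 28.6 and 26.8 against 131 and 129.9 (-2.199).

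Genes of the mesenchymal state were lower in CD201-only cells. Of 45 transcription factors of mesenchymal cells 28 fell, 15 of them by at least 2-fold, and 5 rose (3 without double-positive replicate 2), with a median of -0.46. PRRX1, a homeobox factor of limb and dermal mesenchyme, stood at 2.41 and 2.82 FPKM in CD201-only and 19.2 and 19.1 in double-positive cells (-2.48, adjusted p 4.42e-07), and SNAI2, a repressor of epithelial genes, at 4.84 and 4.81 against 20.4 and 21.1 (-1.902). TBX2 stood at 3.06 and 2.79 against 13.2 and 12.9 (-1.84). The CD201-only level of all 3 was under that of both double-positive libraries, as the choice of named genes required. MEOX2, a homeobox factor of somitic mesoderm, rose, at 6.67 and 7.87 against 3.55 and 3.14 (0.93).

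Surface antigens of fibroblasts and stromal cells fell in 11 of 20 and rose in 5 (1 without CD201-only replicate 1, 3 without CD201-only replicate 2, 2 without double-positive replicate 1 and 3 after median-ratio rescaling). CAV1, the coat protein of caveolae, stood at 64.3 and 67.8 against 268 and 278 (-2.03), and CD34, a sialomucin of progenitor cells, at 49.7 and 50.4 against 25.7 and 25.5 (0.94). Contractile and actin genes fell in 20 of 34 and rose in 9 (4 after median-ratio rescaling), with a median of -0.14. CNN1, calponin, stood at 1.01 and 1.4 against 5.08 and 5.56 (-1.52), MYLK, myosin light chain kinase, changed by -1.29 and smoothelin (SMTN) by -1.04, and the muscle filament DES rose by 0.51. The fall in this list was much smaller at its median than in the collagens.

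Position genes and imprinted genes showed a few single large changes. Of 42 HOX genes 20 passed the limit, of which 10 rose (6 after median-ratio rescaling) and 1 fell. HOXD1 stood at 70.2 and 69.4 FPKM against 31.7 and 28.1 (1.198), HOXD4 rose by 0.86 and HOXA10 by 0.52; HOXB2 changed by -0.27, a call lost under at least 1 alternative. Among 22 imprinted genes 10 fell and 6 rose. H19, a maternally expressed long non-coding RNA of fetal tissue, was among the most abundant transcripts, at 4494 and 4423 in CD201-only, 2260.0 and 2226 in double-positive and 1554 and 1572 in double-negative cells (0.99 against double-positive, 1.51 against double-negative with adjusted p 1.46e-07). MEG3, another maternally expressed non-coding RNA, went the opposite way, at 7.84 and 7.57 against 35.3 and 34.5 (-2.04), and PEG10, a paternally expressed gene of placenta, stood at 26.5 and 26.1 against 12.4 and 12.5 (1.02).

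Epithelial genes rose. Of 47 listed, 28 passed the limit, 22 rose and 3 fell (median 0.63). CLDN6, a claudin of embryonic epithelium, stood at 11.9 and 10.8 FPKM in CD201-only and 4.36 and 3.94 in double-positive cells (1.26, adjusted p 6.02e-06), and LSR, a tricellular junction protein, at 8.35 and 8.15 against 3.98 and 3.87 (0.91). CDH1 (E-cadherin) and EPCAM were named outside the rule, after their values were seen: CDH1 stood at 3.09 and 2.97 against 1.04 and 1.18 (0.93, adjusted p 7.63e-05) and EPCAM at 2.67 and 2.46 against 1.4 and 1.74 (0.48, adjusted p 0.00989). These defining genes were low in absolute terms in both groups. CLDN12 fell by 0.29.

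Of 7 keratins of simple epithelia listed, 5 passed the limit, 3 rose and 2 were not called. The 3 that rose were far more abundant than CDH1 and EPCAM. KRT8 stood at 1869 and 1834 FPKM against 817 and 782 (1.21), its partner KRT18 at 2156 and 2122 against 1256 and 1224 (0.79) and KRT19 at 66.9 and 67.4 against 35.9 and 33.3 (0.94). KRT8 and KRT18 have many processed pseudogenes, which may take or give reads. Keratinocyte markers were mostly lower: of 29 listed 15 passed the limit, 8 fell and 3 rose, SFN among the latter. KRT14, a keratin of basal keratinocytes, stood at 2.92 and 2.51 against 29.1 and 30.3 (-3.05), FLG (filaggrin) at 1.6 and 1.62 against 11.1 and 10.3 (-2.16) and the elastase inhibitor PI3 at 4.06 and 2.7 against 16.3 and 19.1 (-2.11). KRT8, KRT18 and KRT19 were thus high in the group where KRT14 was low.

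Genes of pluripotent cells, without the delivered factors, rose in 28 and fell in 3 of the 31 that passed the limit, of 57 listed (median 0.66). MYBL2 (1.22) is counted both here and in the mitosis list below, so the lists are not separate. UTF1, a chromatin factor of embryonic stem cells, stood at 5.12 and 5.31 FPKM in CD201-only and 2.16 and 2.07 in double-positive cells (0.996, adjusted p 4.34e-05), and DNMT3B, a de novo DNA methyltransferase, at 10.03 and 9.7 against 5.34 and 5.22 (0.79). TBX3 changed by -0.60. NANOG, SALL4, GDF3 and LIN28A were named after their values were seen. NANOG stood at 4.73 and 3.62 against 1.62 and 1.65 (0.96), SALL4 at 14.1 and 13.5 against 6.33 and 6.57 (0.99) and GDF3 at 32.5 and 35.01 against 15.6 and 17.1 (0.999).

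In the double-negative libraries NANOG stood at 3.75 and 4.11, SALL4 at 20.1 and 20.3, GDF3 at 59.9 and 61.6 and LIN28A, an RNA-binding protein that blocks let-7 processing, at 12.1 and 10.96. LIN28A stood at 3.16 and 3.14 in CD201-only and 1.92 and 1.42 in double-positive cells (0.64). For SALL4, GDF3 and LIN28A the CD201-only level lay between the other groups, with changes of -0.52, -0.83 and -1.59 against double-negative cells (adjusted p 0.000206, 4.01e-05 and 3.51e-05). NANOG differed from double-negative cells by 0.06 (adjusted p 0.692), which was not called.

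Chromatin regulators rose by small amounts. Of 63 histone methylation and Polycomb genes 40 rose and 8 fell (median 0.22); the demethylase KDM1A stood at 151 and 162 against 86.9 and 94.2 (0.78), PHF19 rose by 0.63 and PHC2, a Polycomb subunit, changed by -0.65. Of 56 subunits of chromatin remodelling complexes 34 rose and 4 fell (9 fell after median-ratio rescaling), with SMARCD3, a subunit of the muscle and heart BAF complex, at 1.23 and 1.18 against 6.08 and 4.92 (-1.55) and the ATPase gene SMARCA2 at 3.46 and 3.76 against 8.04 and 8.39 (-0.999). The 2 largest changes of that list were therefore falls in a list that mostly rose. In DNA methylation 8 of 18 rose and 2 fell (1 without CD201-only replicate 1 or double-positive replicate 1); the maintenance enzyme DNMT1 and its partner UHRF1 rose by 0.54 and 0.64. Histone genes with poly-A transcripts split evenly, 8 higher and 8 lower of 19, with the centromeric CENPA at 0.70 and HIST1H2AC at -1.27.

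Cell cycle genes rose nearly as a whole. Of 59 replication and S phase genes 57 rose and 0 fell (median 0.62), and of 62 mitosis and spindle genes 61 rose and 0 fell (median 0.58). CDCA7 stood at 31.1 and 31.3 FPKM in CD201-only and 15.4 and 15.3 in double-positive cells (0.98), the licensing factor CDT1 at 29.6 and 29.6 against 16.4 and 15.4 (0.85) and ORC1, of the origin recognition complex, at 12.01 and 12.4 against 6.23 and 5.93 (0.90). MYBL2, which drives mitotic genes, stood at 135 and 133 against 58.6 and 55.3 (1.22, adjusted p 3.68e-07), cyclin B2 (CCNB2) rose by 0.87 and CDC20, the activator of the anaphase-promoting complex, by 0.85. The changes were moderate but the libraries of each group lay close together, and nearly every member was called.

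Of 43 p53 and CDK inhibitor genes 19 rose and 9 fell, beside 36.0% and 23.3% of all genes, with a median of 0.10. The 3 largest called changes were falls. CDKN2B, the CDK inhibitor p15, stood at 2.8 and 2.38 against 7.12 and 7.07 (-1.18), cyclin D1 (CCND1) at 157 and 153 against 291 and 287 (-0.89) and the BH3-only gene PMAIP1 at 10.7 and 10.3 against 22.7 and 20.6 (-0.98). CDKN1A and CDKN1B were named after their values were seen: the p21 inhibitor CDKN1A stood at 395 and 391 against 679 and 675 (-0.78), and the p27 inhibitor CDKN1B rose, at 24.8 and 22.7 against 16.8 and 17.1 (0.46). CDK inhibitor genes thus changed in both directions. BCL2 family and caspase genes rose in 12 and fell in 7 of 26 (7 rose without CD201-only replicate 1), with the inflammatory caspase CASP4 at -0.94.

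Genes of protein synthesis and RNA processing also rose. Of 76 cytosolic ribosomal protein genes 71 rose and 0 fell, with a median of 0.33; RPS26 rose by 0.72, RPS27A by 0.55 and RPSA by 0.50. These genes have many pseudogenes, so single members are uncertain. Many are abundant, and of all 788 genes at 100 FPKM or more 452 rose and 201 fell, with a median of 0.15. Ribosome biogenesis rose in 36 of 45 and fell in 1 (median 0.30), with nucleolin (NCL) at 418 and 418 against 274 and 279 (0.60) and fibrillarin (FBL) at 204 and 204 against 137 and 137 (0.57). Splicing factors rose in 50 of 57 and fell in 2 (median 0.41): HNRNPA1 rose by 0.68 and SNRPE by 0.66, while MBNL1, a splicing factor of differentiated cells, changed by -0.42. Mitochondrial ribosomal proteins rose in 53 of 76 and tRNA synthetases in 23 of 37, with 2 and 1 lower.

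**Figure D5:**
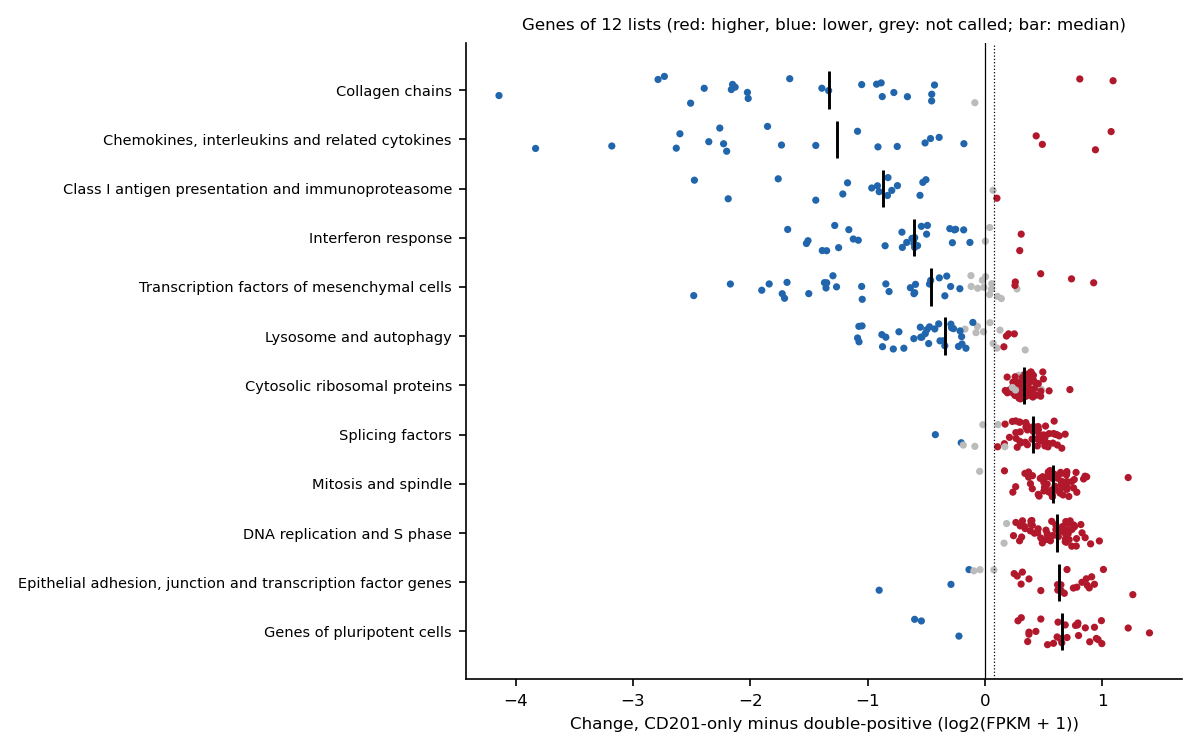
Change of each tested gene in selected lists (difference of mean log2(FPKM + 1)), one point per gene, coloured by whether it was called higher, called lower or not called. Collagen, cytokine and mesenchymal factor genes spread far to the left, while replication and ribosomal protein genes form narrow bands to the right of 0.

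Metabolic lists moved less. Of 79 respiratory chain and ATP synthase genes 53 rose and 3 fell with a median of 0.17, and after median-ratio rescaling 28 rose. COX7A1, the heart and muscle isoform of a cytochrome oxidase subunit, fell by 0.57 where NDUFAB1 rose by 0.43 and NDUFV1 by 0.42. Of 36 glycolysis and sugar transport genes 19 rose and 11 fell: the glucose transporter SLC2A3 stood at 50.96 and 53.8 against 25.3 and 27.1 (0.97) and PFKFB3, which makes the activator of phosphofructokinase, at 20.5 and 21.1 against 40.5 and 39.2 (-0.91). Hypoxia targets outside glycolysis fell in 12 of 20 and rose in 4 (2 without CD201-only replicate 2 or after median-ratio rescaling), with EPAS1, which encodes HIF-2 alpha, at 2.83 and 3.01 against 13.04 and 12.98 (-1.84).

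Lysosome and autophagy genes fell in 32 of 45 and rose in 4 (1 after median-ratio rescaling), with a median of -0.34. Cathepsin B (CTSB) stood at 145 and 143 FPKM against 300.5 and 298 (-1.05), the collagen-degrading cathepsin K (CTSK) at 39.8 and 42.4 against 85.1 and 89.99 (-1.07) and MAP1LC3A, an autophagosome protein, at 9.23 and 9.68 against 22.2 and 19.8 (-1.07). The enzyme gene GUSB rose by 0.25. Of 34 antioxidant genes 18 fell and 10 rose: SOD3, the extracellular superoxide dismutase, stood at 6.5 and 5.77 against 53.9 and 51.4 (-2.91), catalase (CAT) changed by -0.87 and HMOX1 by -0.91, and GPX3, a secreted glutathione peroxidase, rose by 0.78. Metallothionein and zinc transport genes rose in 6 of 12 and fell in 0 (3 after median-ratio rescaling), with MT1X at 625 and 622 against 363 and 364 (0.78), in a family of near-identical copies.

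Cholesterol, serine and endoplasmic reticulum genes had no common direction. In the cholesterol and chaperone lists the shares called lay near the 36.0% higher and 23.3% lower of all genes. Cholesterol and fatty acid synthesis rose in 15 (8 after median-ratio rescaling) and fell in 9 of 38; the desaturase SCD rose by 0.54, and INSIG1, which retains sterol sensors in the endoplasmic reticulum, changed by -0.68. The serine and ATF4 list split into 12 higher and 11 lower of 34, with CHAC1, a glutathione-degrading ATF4 target, at 7.12 and 7.82 against 20 and 19.7 (-1.301) and CEBPB at 12.04 and 12.03 against 32.8 and 31.9 (-1.35). Chaperones split into 12 higher and 8 lower of 30; HYOU1 and SDF2L1 rose by 0.52 and 0.51 and EDEM1 changed by -0.30.

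Markers of other cell types were checked because a sorted fraction can hold other cells. Summed FPKM over the 29 keratinocyte markers was 172.4 and 170.7 in CD201-only and 270.2 and 278.1 in double-positive cells, with KRT2, LOR, DSC3 and S100A8 at 0 in all 4 libraries and TP63, KRT1, IVL and DSG3 under 1 FPKM. Over 22 endothelial markers it was 65.99 and 70.11 against 91.97 and 93.41, with SOX17, LYVE1 and MMRN1 at 0 and PECAM1 and CDH5 under 1. Other endothelial markers were present: the angiopoietin receptor TEK stood at 24.6 and 26.4 against 18 and 19.9 (0.41), the nitric oxide synthase NOS3 at 10.7 and 11.6 against 25.2 and 24.2 (-1.09), the VEGF receptor FLT1 at 7.63 and 7.6 against 19.7 and 19.5 (-1.26) and ROBO4 at 1.07 and 1.12 against 5.25 and 5.54 (-1.61). Over 26 blood markers it was 31.8 and 30.35 against 98.55 and 95.96, with 8 at 0 and PTPRC, the pan-leukocyte CD45 gene, and SPI1 under 1. CD68 and CD14, which other cells also express, held most of that difference: CD68, a lysosomal protein, stood at 8.35 and 7.85 against 55.98 and 52.6 (-2.603) and CD14 at 9.74 and 8.13 against 33.5 and 32.3 (-1.78), while NKG7 rose by 0.86. PECAM1, CDH5 and PTPRC were thus under 1 FPKM in both groups, while part of the endothelial list was not and moved in both directions. Among keratinocyte markers, 14 were at 1 FPKM or more in all 4 libraries, KRT14 and FLG included (the values are given with the keratins). KRT6A stood at 41.9 and 41.6 in CD201-only against 74.7 and 77.95 in double-positive cells, and KRT16 at 5.51 and 5.47 against 24.3 and 24.8. KRT17 stood at 16.5 and 16.9 against 16.6 and 14.2, and KRT5 at 9.84 and 9.74 against 5.68 and 6.18. SLURP1 among the largest falls is also made by keratinocytes. The part of keratinocyte genes in the other falls was not tested.

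Among 21 neural markers the sum was 339.2 and 337.8 against 337.2 and 333.1, with DCX, NEUROD1, OLIG2 and SOX10 at 0. Nearly all of it came from NES at 125 and 122 against 132 and 129.8 (-0.08, a call lost under at least 1 alternative), TUBB3 at 144 and 147 against 116 and 114 (0.34), STMN2 at 36.7 and 35.9 against 58.8 and 58.2 (-0.67) and MAP2, which was not called. These are cytoskeletal genes that changed in both directions under an even sum. Among 26 trophoblast and amnion markers it was 324.7 and 323.1 against 288.4 and 289.9, with GCM1 and TFAP2B at 0 and CDX2, GATA3 and ELF5 under 1. GATA2 stood at 29.7 and 29.9 against 24.4 and 23.6 (0.30) and TFAP2C at 29.1 and 31.2 against 24.9 and 24.3 (0.28), both higher, while PSG5, a pregnancy-specific glycoprotein, stood at 0.184 and 0.222 against 2.99 and 4.49 (-1.96) and PSG4 changed by -1.39. TFAP2A and PGF, also present, were not called, and TEAD3 changed by -0.18. The PSG genes are closely similar, so single members are uncertain. Over 24 mesoderm and endoderm markers it was 112.6 and 112.2 against 64.01 and 63.36, where TBXT, GSC, SOX17 and FOXA2 were at 0. HAND1 belongs to both of the last lists and alone supplied most of the mesoderm and endoderm sum in CD201-only cells. ISL1, a LIM-homeobox factor, rose by 0.83 to 13.2 and 13.1 against 6.49 and 7.44. The part of other cells in these sums was not tested.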

How the data were processed

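Poly-A RNA of 3 sorted groups of BJ cells was sequenced on day 8 in 2 libraries each, and 4 libraries were compared here. The authors deposited 1 table of FPKM values per gene symbol, and the submitters' processing notes name STAR, Cuffnorm and the builds hg19 and GRCh37. The sources used here give no tool version, annotation, strand setting or scaling option, and Cuffnorm can rescale libraries. All 6 value columns were assigned from the labels and 0 were left unassigned.

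The scale was log2(FPKM + 1), a pseudocount of 1. One model with a coefficient for each of the 3 groups was fitted per gene in limma 3.58.1 (R 4.3.3) with a variance trend, over all 6 libraries, so that the groups share one estimate of spread with 3 residual and 4.03 prior degrees of freedom. The contrast was adjusted by Benjamini-Hochberg over 12161 genes at a threshold of 0.05. The double-negative contrast comes from the same fit. Tables and plots used matplotlib 3.10.9, numpy 2.4.6 and pandas 2.3.3 under Python 3.11.15.

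Named genes were those of the 2 sorted proteins and the 4 delivered factors, the 12 largest rises and falls, and from each of 61 lists with at least 3 called members the 3 largest called changes plus the largest in the minority direction. Apart from the genes of the sorted proteins and delivered factors, each had to be called, not overlap between groups and reach a mean of 5 FPKM in the higher group. Fibroblast markers and markers of other cell types came from separate lists without these limits. Some genes that this rule names are not reported here. Small RNA genes and joined symbols were left out of the largest changes. The members and lists were chosen with earlier results of these data known. Lists have no test. Alternatives changed the pseudocount, the filter, the scaling, the variance model, the libraries fitted and the replicate block. Counts were not used, so absolute depth is unknown and no counting interval is given.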

Additional observations from a re-analysis of the deposited data

How the results depend on the processing

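The counts of genes called higher and lower stayed within 1.5 times their values under all 17 alternatives, as did the counts past 2-fold except for 3. Rises of at least 2-fold went from 83 to 214 with a pseudocount of 0.1 and to 130 with one of 0.5, and falls went from 519 to 324 when a mean of 5 FPKM was required, where fewer genes are tested. Leaving out each library gave 3546 to 4120 genes higher and 2421 to 2709 lower. Of 220 called named genes, 215 kept their call and direction under every alternative in which they were tested, 5 lost the call under at least 1 (LINC01405, CALR, HOXB2, RRN3 and NES), and 0 reversed; 14 named genes, among them MUC4, IL6, PAPPA and UTF1, had no value where a mean of 5 FPKM was required. The sign of POU5F1, which was not called, depended on single libraries: its change ran from -0.0403 to 0.0229 over the fits that leave out a library, and was above 0 without CD201-only replicate 2 (0.0192) and without double-positive replicate 1 (0.0229). The change of SOX2 turned to -0.0406 after median-ratio rescaling and -0.0292 after quantile normalization, with no call. PROCR was called lower after rescaling (adjusted p 0.00897 and, by quantiles, 0.0173), with only the 4 compared libraries (0.0472), with the replicate block (0.0218) and without CD201-only replicate 2 (0.0433). Medians of 11 of the 61 lists changed sign under at least 1 alternative, among them the surface peptidase, FGF, WNT, Notch, retinoic acid, histone, cholesterol, serine, chaperone, trophoblast and germ layer lists, so no direction is given for these. List counts of 1 or 2 genes moved by 1 under several alternatives.

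Replicates with the same number deviated from their group means with a correlation of 0.118 between CD201-only and double-positive cells, but 0.091 and -0.086 in the pairs with double-negative cells, and the labels do not say what a number stands for, so the numbers were not taken as pairs and the origin of the libraries is not settled by this. With the replicate block, 4385 genes were called higher and 2839 lower, of which 4237 and 2768 were also called without it. No counts were used, so precision at low levels is limited to what the spread between replicates shows.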

Other observations

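Gene classes outside the lists were counted after the values had been seen. Calls were more frequent at higher levels, and the levels of these classes were not compared. Of 303 tested zinc finger genes with symbols starting ZNF, 91 were called higher in CD201-only cells (30.03%) and 17 lower (5.61%), beside 36.0% and 23.3% of all genes, with a median change of 0.13 beside 0.07 for all genes; 0 rose and 2 fell by 2-fold or more. Of 208 genes with symbols starting SLC, which name solute carriers, 66 were higher and 64 lower, with a median of 0.01. Of 423 long non-coding RNA genes, 107 were higher, 72 lower and 244 not called, beside 4181 higher, 2731 lower and 4495 not called of 11407 protein-coding genes; the difference between these classes was not tested.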
